A study of Mus musculus with 4 samples.

Results

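The heat shock proteins and chaperonins described here are 82 genes, of 55536 annotated genes measured. They are the genes with at least 1 protein-coding transcript whose symbols begin with Hspa, Hspb, Hspd, Hspe, Hsph, Hsp90, Dnaja, Dnajb or Dnajc, or with Cct and a digit, with pseudogenes left out. RNA sequencing after polyA selection measured them in inflammation-experienced regulatory T cells, abbreviated Treg, the Foxp3-expressing CD4 T cells that hold immune responses in check. The 4 libraries came from an adult male mouse, 6 months old, of the strain Foxp3CreERT2 x Rosa26YFP, which carries an inducible Cre recombinase in Foxp3 and a fluorescent reporter in Rosa26. The labels trace these primary cells to a bone marrow hematopoietic cell and count 1 biological replicate, of which libraries 1 to 4 are the technical replicates. No other group was measured, so each p-value below addresses only the spread between these libraries, which may be technical.

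Molecular chaperones bind unfolded or partly folded proteins and limit their aggregation. HSP70 proteins work in cycles of ATP hydrolysis that J-domain proteins stimulate and nucleotide exchange factors complete, HSP90 proteins act later on a set of signalling clients, and chaperonins fold proteins inside a ring-shaped chamber. Some of these genes are expressed at all times, whereas others are classically induced by heat or misfolded protein through the transcription factor HSF1, and those of the endoplasmic reticulum by the unfolded protein response.

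The 4 libraries held 9284432, 9341328, 9325636 and 6648385 expected counts on genes. The 5 Treg markers Foxp3, Il2ra, Ctla4, Ikzf2 and Tnfrsf18 summed to 1105, 1204, 1546 and 1398 TPM (transcript abundance scaled for length and depth), and each exceeded 10 TPM in every library. Library 1 stood apart in its content of erythroid RNA: 5 erythroid genes summed to 1065, 4.60, 38.6 and 17.2 TPM in libraries 1 to 4, with Hba-a1 at 0 in library 2 and Hbb-bt at 0 in library 4. The 5 B cell genes summed to 177, 125, 79.0 and 149 TPM, the 5 plasma cell genes to 135, 54.6, 119 and 84.4, and the 5 myeloid genes to 31.8, 10.8, 8.07 and 19.5, with Adgre1 at 0 in library 3. In such bulk libraries, fewer cells of a type and less RNA per cell cannot be told apart.

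The promoters of 5 stress-inducible genes and of Hspa5 are shown as examples of windows in which a motif search found matches. Each is the RefSeq window on GRCm38.p6 from 250 bases before to 50 bases after a RefSeq start site, written 5′ to 3′ on the gene's own strand. The site nearest to the GENCODE gene start was taken. It can differ from the gene boundaries given below, as in Hspa5, and positions are counted from the RefSeq site. Capitals mark the heat shock element, searched as GAANNTTC or TTCNNGAA on both strands, in all but Hspa5. In Hspa5 they mark the endoplasmic reticulum stress element, searched as CCAAT and CCACG with 9 bases between them, on both strands. Overlapping matches are joined into 1 run of capitals. The motifs and the promoters shown were chosen after expression values had been seen. The windows are chr17:34972107-34972406 (Hspa1a, minus strand), chr17:34959189-34959488 (Hspa1b, minus), chr5:149636287-149636586 (Hsph1, minus), chr1:55087898-55088197 (Hspe1, plus), chr5:135887669-135887968 (Hspb1, plus) and chr2:34771840-34772139 (Hspa5, plus).
Hspa1a: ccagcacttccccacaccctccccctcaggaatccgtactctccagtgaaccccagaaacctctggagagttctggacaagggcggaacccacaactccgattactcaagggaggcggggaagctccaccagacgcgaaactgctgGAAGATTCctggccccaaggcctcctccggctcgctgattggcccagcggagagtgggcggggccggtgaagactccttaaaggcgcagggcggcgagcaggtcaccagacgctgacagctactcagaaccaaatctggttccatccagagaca
Hspa1b: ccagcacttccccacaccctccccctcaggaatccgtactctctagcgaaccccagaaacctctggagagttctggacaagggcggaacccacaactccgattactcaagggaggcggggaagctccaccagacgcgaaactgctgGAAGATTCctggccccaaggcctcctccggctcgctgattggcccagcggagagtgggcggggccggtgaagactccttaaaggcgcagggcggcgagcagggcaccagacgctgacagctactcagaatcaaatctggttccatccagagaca
Hsph1: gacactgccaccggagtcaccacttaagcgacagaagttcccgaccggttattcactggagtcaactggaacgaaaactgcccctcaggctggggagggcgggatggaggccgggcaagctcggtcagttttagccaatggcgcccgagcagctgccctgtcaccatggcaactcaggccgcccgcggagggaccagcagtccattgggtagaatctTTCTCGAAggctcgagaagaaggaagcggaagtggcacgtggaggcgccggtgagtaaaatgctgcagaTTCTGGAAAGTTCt
Hspe1: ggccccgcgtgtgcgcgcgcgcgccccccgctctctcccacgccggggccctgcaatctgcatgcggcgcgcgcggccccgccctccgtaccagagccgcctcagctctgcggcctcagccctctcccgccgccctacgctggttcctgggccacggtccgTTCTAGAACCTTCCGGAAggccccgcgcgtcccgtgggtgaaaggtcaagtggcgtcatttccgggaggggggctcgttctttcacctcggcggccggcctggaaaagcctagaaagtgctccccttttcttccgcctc
Hspb1: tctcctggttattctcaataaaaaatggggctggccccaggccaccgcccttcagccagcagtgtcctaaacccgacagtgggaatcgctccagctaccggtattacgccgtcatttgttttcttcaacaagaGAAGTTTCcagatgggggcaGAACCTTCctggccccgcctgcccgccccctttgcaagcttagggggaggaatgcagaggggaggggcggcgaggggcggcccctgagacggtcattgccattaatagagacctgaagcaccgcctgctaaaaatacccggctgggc
Hspa5: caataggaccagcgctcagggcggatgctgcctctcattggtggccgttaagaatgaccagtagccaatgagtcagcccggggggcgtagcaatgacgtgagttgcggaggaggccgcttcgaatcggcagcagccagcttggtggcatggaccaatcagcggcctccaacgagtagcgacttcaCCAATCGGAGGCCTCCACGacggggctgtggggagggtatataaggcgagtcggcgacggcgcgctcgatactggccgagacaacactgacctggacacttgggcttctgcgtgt

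The Hspa1a and Hspa1b windows differed at 4 of 300 bases, and each held 1 heat shock element match beginning at position -104 from the start. Hsph1, which encodes the HSP110 protein HSP105, had runs beginning at -33 and 36, and Hspb1 had runs at -117 and -97. In Hspe1 the matches overlapped in 1 run from -89. Hspe1 and Hspd1 lie head to head on chromosome 1, so the window of Hspd1 overlaps that of Hspe1 on the other strand. In Hspa5 the match began at -65.

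RefSeq windows were matched for 67 of the 82 genes. The rest, among them Hspa8, Hspa9, Hsp90aa1 and Hsp90ab1, had no window and were not searched. Not every stress-inducible gene held a match: neither of the windows of Dnajb1 held the exact letters searched for the heat shock element. At least 1 heat shock element of 2 units was present in 19 of the 67 genes (28.4%), against 17.0% of 27025 genes with windows. A gene was counted if any of its windows held a match. The longer form of 3 units, in which GAA and TTC alternate at the same spacing, was present in 4 of them (5.97%; Dnajb6, Hspd1, Hspe1 and Hsph1), against 0.662% of all genes with windows. Because the windows of Hspd1 and Hspe1 overlap, the same matches count for both genes, in the form of 2 units as well. The endoplasmic reticulum stress element was present in 3 of them (4.48%; Dnajc3, Hsp90b1 and Hspa5), against 0.137%. The CCAAT box, which is also part of that element, was about as frequent in these genes (41.8%) as in all genes with windows (41.1%). A match of letters does not show that a factor binds there.

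Most of the 82 genes were expressed. In all 4 libraries 62 of them (75.6%) reached 1 TPM, as did 9953 of 22015 nuclear protein-coding genes (45.2%). At 10 TPM or more in all libraries there were 45, and at 100 TPM or more there were 16. The median level over the 82 genes was 16.3 TPM with an SD of 2.07 over library medians, against 0.648 TPM with an SD of 0.0560 over nuclear protein-coding genes. Their levels summed to 8867, 7608, 7164 and 6936 TPM in libraries 1 to 4, which is 0.764 ± 0.0862% of all TPM (SD, n = 4). Library 1 had the highest sum, and the other three lay within a narrower band. Hspa8 alone held 29.2 ± 2.92% of the sum, the leading 5 genes held 54.8 ± 2.53% and the leading 10 held 71.4 ± 1.73%.

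By family, the 11 HSP70 genes held 37.2% of the summed TPM, the 8 CCT chaperonin genes 18.1%, the 28 DNAJC genes 15.9%, the 3 HSP90 genes 13.9% and the 4 DNAJA genes 7.08%. The 2 genes of the mitochondrial HSP60/HSP10 chaperonin held 3.48%, the 13 DNAJB genes 2.73%, the 2 HSP-binding genes 0.699%, the 3 HSP110 genes 0.692% and the 8 small HSP genes 0.317%. Most of the small HSP sum, 20.75 of 24.24 TPM on average, was Hspb11. The 45 J-domain genes together held 25.7%. These shares are of the main table and depended on the quantification. In the counts on the older M4 annotation, scaled for length, the HSP70 and CCT sums were close, at 2276 and 2197. In the main table they were 2858 and 1372 TPM. Hspa8 stood at 1540 in the M4 counts, against 2249 TPM in the main table. The HSP110 genes, some of which carry Hspa symbols, were separated from HSP70 after values had been seen.

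**Figure D1:**
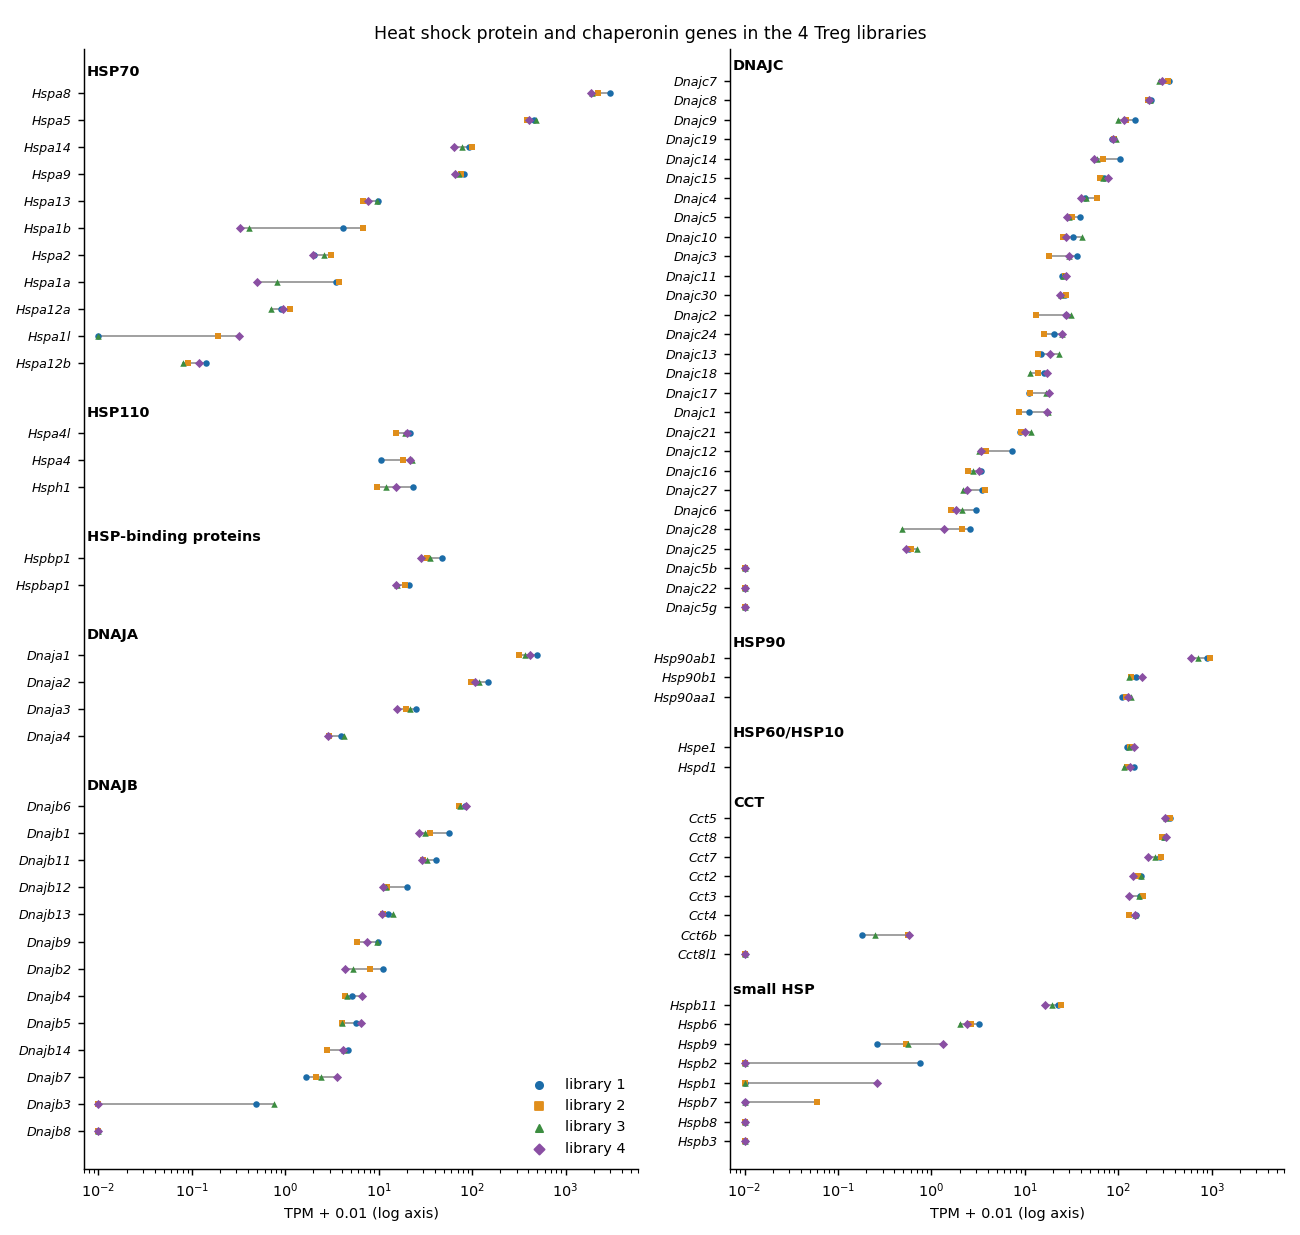
Level of each of the 82 genes in each library, grouped by family, as TPM + 0.01 on a log axis. Hspa8 at 1896 to 2958 TPM is the highest, most small HSP genes lie below 1 TPM, and Hspa1a and Hspa1b show the widest separation of libraries among the genes above 1 TPM on average.

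Each gene was tested for unequal shares of the counts in the 4 libraries (Poisson likelihood ratio test, 3 degrees of freedom), and an adjusted p (Benjamini-Hochberg over all tested genes) under 0.05 was called. By this test 52 of the 67 heat shock and chaperonin genes whose counts averaged 10 or more differed between libraries, against 68.4% of all 13045 tested genes. The count was 51 with DESeq2 size factors, against 68.3% of all tested genes, 49 with total counts, against 69.2%, 57 of 68 in the second quantification, against 62.4%, and 53 of 65 in the M4 counts, against 78.5%. The median of the mean counts was 334 over the 67 genes and 200 over all tested genes, and small differences pass more easily in deeply counted genes. A difference of at least 2-fold between the highest and the lowest library was found in 5 of the 67, against 15.7% of all tested genes. The SD over libraries of log2 CPM (counts scaled to library size) that remained after counting error was subtracted had a median of 0.199 in the 67 genes and 0.216 in all tested genes, and the median log2 range was 0.57 and 0.58. The medians were thus close, while large ranges were a smaller share of the chaperone genes than of all tested genes. Unlike the SD, these ranges were not corrected for counting error, which widens them more in genes of few counts. The chaperone genes were the more deeply counted. Where counts averaged 50 or more, the median corrected SD was 0.1987 in the chaperone genes and 0.2015 in all tested genes. No test of the difference in share was made, and the part of depth in it was not tested.

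In CPM, the scale of the test, 22 of the 52 called genes were highest in library 1, 17 in library 2, 6 in library 3 and 7 in library 4. Of the 8925 genes called among all 13045 tested, 2785, 2758, 1629 and 1753 were highest in libraries 1, 2, 3 and 4. Those are 21.3%, 21.1%, 12.5% and 13.4% of all tested genes, called or not. In CPM all 5 called CCT genes were highest in library 2, but in TPM 2 of them were highest in library 1, 2 in library 2 and 1 in library 4. All 3 called DNAJA genes were highest in library 1 on both scales, as were 5 of the 8 called DNAJB genes in CPM and 6 in TPM. With each library left out in turn, 27 of the 52 calls held in all 4 fits and 25 were lost in at least one of them. Without library 1, 9 calls were lost, without library 2 11, without library 3 6 and without library 4 5. In those fits 44, 41, 47 and 48 of 67 chaperone genes were called, against 54.4%, 54.8%, 60.7% and 61.8% of all tested genes. The share of all called genes that lost a call was not counted.

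Hspa8, the constitutive HSP70 of the cytosol (ENSMUSG00000015656.17, chromosome 9, 40800984 to 40810087 on mm10, plus strand), had 2958, 2209, 1934 and 1896 TPM in libraries 1 to 4. Library 1 was the highest, and libraries 3 and 4 were close to each other. It averaged 2249 ± 493 TPM (SD, n = 4), ranked 41 among nuclear protein-coding genes, and had a chi-square of 3264 between libraries at a 1.51-fold range. Its level carries an uncertainty of assignment, since 86.3% of the 50-base stretches of its leading transcript also occur in transcripts of other genes.

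Hspa5, which encodes BiP, the HSP70 of the endoplasmic reticulum (ENSMUSG00000026864.13, chromosome 2, 34771970 to 34777547), had 460, 387, 483 and 405 TPM. Its libraries differed by 1.21-fold at most in CPM, a difference that passed the likelihood ratio test (adjusted p = 5.4e-26). Hspa9, the mitochondrial HSP70, had 82.3, 75.5, 71.8 and 65.5 TPM and ranged 1.28-fold. Hspa14, a ribosome-associated HSP70, had 92.4, 99.9, 78.8 and 64.7 TPM. It was lowest in library 4, at a 1.80-fold range (likelihood ratio test, adjusted p = 1.5e-31), and shares its locus with Gm45902, so that its reads may be split between them. Hspa13, an HSP70 of microsomes, averaged 8.42 ± 1.45 TPM, and Hspa2, best known from male germ cells, averaged 2.41 ± 0.520 TPM and missed the threshold of the likelihood ratio test (adjusted p = 0.050). Hspa12a, Hspa1l and Hspa12b averaged 0.908, 0.123 and 0.0975 TPM, but Hspa12b averaged 3.58 TPM in the second quantification.

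Hspa1a and Hspa1b encode nearly identical stress-inducible HSP70 proteins and lie near each other on chromosome 17, at 34969190 to 34972156 and 34956436 to 34959238. Hspa1a had 3.52, 3.76, 0.80 and 0.49 TPM in libraries 1 to 4, from 69.6, 82.8, 17.0 and 7.43 expected counts. Hspa1b had 4.14, 6.72, 0.40 and 0.32 TPM, from 77.1, 139, 7.99 and 4.57 expected counts. Both genes were high in libraries 1 and 2 and low in libraries 3 and 4.

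Between the highest and the lowest library, Hspa1a ranged 8.62-fold (likelihood ratio test, adjusted p = 3.5e-20) and Hspa1b 19.6-fold (adjusted p = 2.0e-46) in CPM with 0.5 counts added. Both stayed called with any library left out, at 5.09 to 8.62-fold and 10.7 to 19.6-fold. Of the 50-base stretches of their leading transcripts, 66.3% in Hspa1a and 62.3% in Hspa1b also occur in transcripts of other genes, which leaves the division of reads within the pair uncertain. For both, these other genes include Gm20481 and Gm10501 outside the pair, so the summed level of the pair is uncertain too. That sum was 7.66, 10.5, 1.2 and 0.81 TPM. The whole-number counts on the older M4 annotation were far fewer, at 8, 13, 8 and 2 for Hspa1a and 12, 30, 5 and 1 for Hspa1b.

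Even in library 2 the inducible pair stood well below Hspa8. On the log2(TPM + 0.1) scale, Hspa8 exceeded the sum of the pair by 8.57, 7.71, 10.54 and 11.02 in libraries 1 to 4, mean 9.46 ± 1.58 (SD, n = 4), and by a mean of 10.98 in the M4 counts. A set of 13 genes that mark cell dissociation, such as Fos and Jun, summed to 597, 572, 629 and 454 TPM and was highest in library 3. Its genes did not move alike. Fos had 6.35, 30.8, 64.1 and 11.9 TPM and Jun 21.7, 9.88, 25.4 and 7.83 TPM, both highest in library 3. Btg2, the most abundant of the set, had 268, 258, 190 and 177 TPM and was higher in libraries 1 and 2. The part of dissociation, or of RNA from other cells, in the levels of Hspa1a and Hspa1b was not tested.

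**Figure D2:**
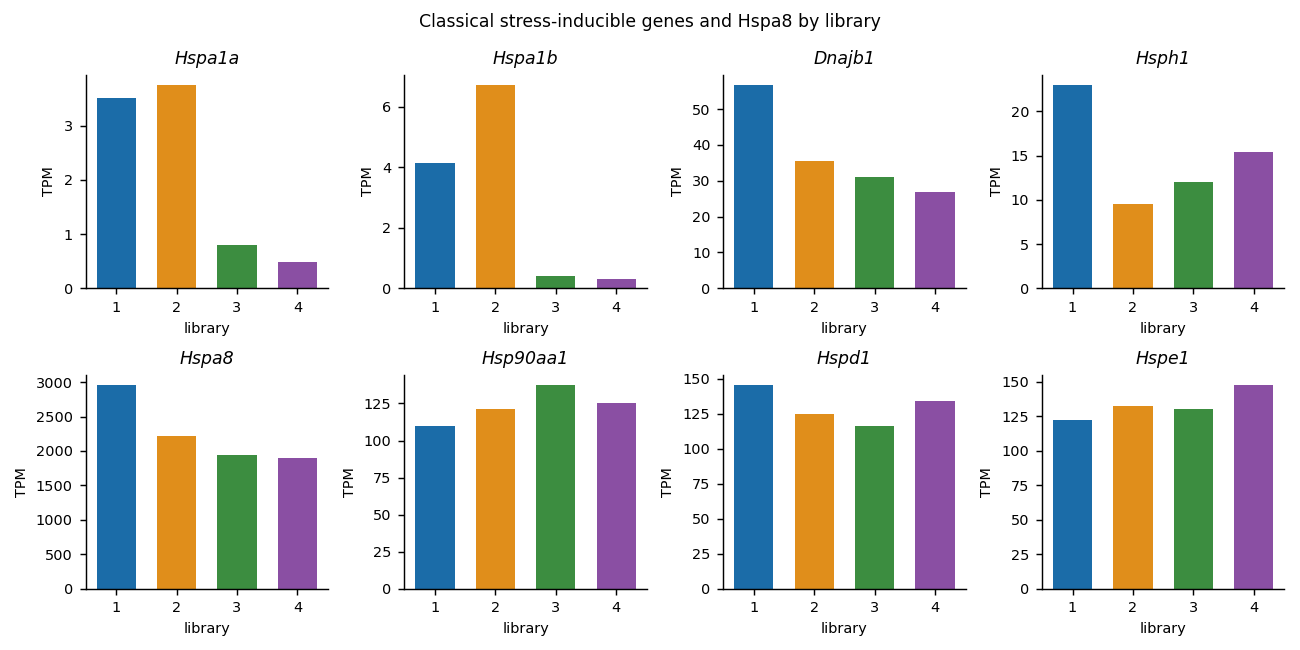
TPM of 8 heat shock genes in libraries 1 to 4, as bars from 0, each panel with its own axis. Hspa1a and Hspa1b drop to 0.80 TPM or less in libraries 3 and 4, Dnajb1 and Hsph1 are highest in library 1, and Hsp90aa1, Hspd1 and Hspe1 range 1.19 to 1.26-fold in CPM.

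J-domain proteins deliver clients to HSP70 and stimulate its ATPase. Dnaja1, the most abundant of them in the main table (chromosome 4, 40722150 to 40737149), had 499, 318, 366 and 417 TPM. In the M4 counts its level of 203 was below those of Dnajc7 (464) and Dnajc8 (280.2). It was highest in library 1, ranged 1.36-fold in CPM (likelihood ratio test, adjusted p = 1.8e-53), and shared 83.2% of its 50-base stretches with other genes. Dnaja2 had 147, 97.6, 117 and 108 TPM, and its call was lost without library 1 (likelihood ratio test, adjusted p = 0.12). Dnaja3, a mitochondrial J-domain protein, averaged 20.6 ± 3.98 TPM, and Dnaja4 averaged 3.49 ± 0.713 TPM and was not called, although it was in the second quantification (likelihood ratio test, adjusted p = 0.016).

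Dnajb1, the classical heat-inducible partner of HSP70 known as HSP40 (ENSMUSG00000005483.10, chromosome 8, 83608193 to 83612653), had 56.8, 35.6, 31.1 and 26.9 TPM. Library 1 was above the other three. Its range was 2.09-fold (likelihood ratio test, adjusted p = 4.2e-50), and 1.48-fold without library 1, where it remained called. Dnaja1 exceeded Dnajb1 by 3.13, 3.16, 3.55 and 3.95 on the log2(TPM + 0.1) scale, mean 3.45 ± 0.39 (SD, n = 4).

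Dnajb6, a suppressor of protein aggregation, was the most abundant DNAJB gene of the main table at 84.5, 72.1, 74.0 and 87.0 TPM, but at 29.6 in the M4 counts it was below Dnajb11 (39.7) and Dnajb1 (36.9). Its call was lost in the M4 counts (likelihood ratio test, adjusted p = 0.097). Dnajb11, a BiP partner, had 41.5, 30.0, 32.6 and 29.0 TPM, and its call was lost without library 1. Dnajb12, a J-domain protein of the endoplasmic reticulum membrane, had 20.2, 12.2, 11.9 and 11.2 TPM, and its call was likewise lost without library 1 (likelihood ratio test, adjusted p = 0.38). Dnajb2 had 11.1, 8.13, 5.34 and 4.31 TPM, lower in libraries 3 and 4, with a range of 2.16-fold that was 1.68-fold without library 4 and remained called. Dnajb5 had 5.75, 4.02, 4.02 and 6.50 TPM and lost its call without library 3 and in the M4 counts. Dnajb13, Dnajb9, Dnajb4, Dnajb14 and Dnajb7 averaged 2.42 to 12.2 TPM. Dnajb3 averaged 0.307 TPM and Dnajb8 was at 0 counts.

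The DNAJC genes are J-domain proteins of many places and tasks. Dnajc7, which binds both HSP70 and HSP90, had 351, 344, 273 and 295 TPM, and Dnajc8, a spliceosome-associated protein, had 226, 210, 218 and 214 TPM. Dnajc7 differed between libraries (likelihood ratio test, adjusted p = 1.3e-55), whereas Dnajc8 ranged 1.07-fold and was not called (adjusted p = 0.23). Dnajc8 was called in the second quantification (likelihood ratio test, adjusted p = 0.0049) and in the M4 counts (adjusted p = 0.0080). Dnajc9, a histone chaperone, had 151, 121, 99.1 and 114 TPM and was highest in library 1.

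Dnajc3, an inhibitor of the eIF2alpha kinases that resides in the endoplasmic reticulum, had 36.4, 18.1, 29.9 and 29.5 TPM. Library 2 was the low one, and without it the range fell to 1.22-fold against 1.77-fold with all libraries. Dnajc2, which acts at the ribosome, had 27.3, 13.3, 31.4 and 27.3 TPM, again lowest in library 2, and lost its call without it (likelihood ratio test, adjusted p = 0.25). Dnajc28 ranged 4.70-fold on few reads, 41, 36, 9 and 15 counts, and lost its call without library 3 (adjusted p = 0.052).

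Among the other DNAJC genes, Dnajc19 and Dnajc15, of the mitochondrial import motor, averaged 90.04 ± 3.96 and 69.8 ± 6.35 TPM, and neither was called. Dnajc14 averaged 71.7 ± 21.9 TPM and Dnajc5, the cysteine string protein, 32.4 ± 4.86. Dnajc10, a disulfide reductase of the endoplasmic reticulum, averaged 31.8 ± 6.81 TPM and Dnajc1, also of that compartment, 13.7 ± 4.52. Dnajc4, Dnajc11, Dnajc30, Dnajc24, Dnajc13, Dnajc18 and Dnajc17 averaged 14.3 to 46.9 TPM and were called. The calls of Dnajc4, Dnajc30 and Dnajc13 were lost without library 2, that of Dnajc17 without library 1, and that of Dnajc24 without library 1, 2 or 3 and in the second quantification (likelihood ratio test, adjusted p = 0.86). Dnajc21, Dnajc12, Dnajc16, Dnajc27, Dnajc6 and Dnajc25 averaged 0.593 to 9.90 TPM. Dnajc5b, Dnajc22 and Dnajc5g were at 0 counts in all libraries.

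Nucleotide exchange factors release ADP from HSP70. Hsph1, the stress-inducible HSP110 (chromosome 5, 149614287 to 149636376), had 23.0, 9.48, 11.97 and 15.4 TPM. Library 1 was highest, and the call rested on it: the range was 1.87-fold with all libraries (likelihood ratio test, adjusted p = 6.8e-19) and 1.14-fold without library 1 (adjusted p = 0.46). Hspa4 went the other way, at 10.5, 18.3, 22.8 and 21.4 TPM, lowest in library 1, and its call was also lost without that library (adjusted p = 0.13). On the log2(TPM + 0.1) scale Hspa4 minus Hsph1 was -1.13, 0.94, 0.93 and 0.48, so that Hspa4 was the lower of the pair in library 1 only. Hspa4l had 21.8, 15.3, 19.2 and 20.3 TPM. Hspbp1, another exchange factor, averaged 36.1 ± 8.48 TPM and Hspbap1 17.7 ± 2.74, and both were highest in library 1, the library with the erythroid RNA. The part of that RNA in these values was not tested.

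HSP90 proteins hold kinases and receptors, among other clients, in a state ready for activation. Hsp90ab1, the constitutive cytosolic form (ENSMUSG00000023944.14, chromosome 17, 45567775 to 45573271), had 884, 950, 712 and 608 TPM. It was higher in libraries 1 and 2 than in libraries 3 and 4, with a chi-square of 2028 and a range of 1.70-fold. Hsp90aa1, the inducible form, had 110, 121, 137 and 126 TPM, highest in library 3. Hsp90ab1 exceeded Hsp90aa1 by 3.01, 2.97, 2.37 and 2.27 on the log2(TPM + 0.1) scale, mean 2.66 ± 0.39 (SD, n = 4). Of the 50-base stretches of Hsp90aa1, 65.6% occur in transcripts of other genes.

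Hsp90b1, which encodes GRP94 of the endoplasmic reticulum, had 156, 138, 130 and 179 TPM and was highest in library 4. It stood below Hspa5 in every library, by -1.56, -1.49, -1.89 and -1.18 on the log2(TPM + 0.1) scale. A set of 8 genes of the endoplasmic reticulum (Hspa5, Hspa13, Hsp90b1, Dnajb9, Dnajb11, Dnajc1, Dnajc3 and Dnajc10), which was grouped after values had been seen and leaves out genes such as Dnajb12, summed to 758, 620, 754 and 702 TPM. All 8 were called, against 68.4% of all tested genes, and the calls of Dnajb11, Dnajb9 and Hspa13 were lost with one library left out.

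The chaperonin CCT, also called TRiC, folds actin and tubulin in a double ring in which each of 8 different subunits stands once per ring. Of these, 6 expressed subunits belonged to the set. Tcp1, whose symbol lies outside the rule, and Cct6a, left out for want of a protein-coding transcript, are given beside them to complete the ring. Cct5 was the highest at 338 ± 20.6 TPM, then Cct8 at 306 ± 11.4, Cct7 at 254 ± 35.6, Tcp1 at 176 ± 15.9, Cct2 at 164 ± 14.1, Cct3 at 162 ± 21.8, Cct4 at 147 ± 11.8 and Cct6a at 132 ± 15.2 (SD, n = 4). The levels of Tcp1, Cct2 and Cct3 did not differ beyond their spread. The highest exceeded the lowest subunit by 1.37 ± 0.14 on the log2 scale, or 2.58-fold.

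Cct6a has no transcript annotated as protein-coding in these tables, and its level depended on the quantification. It stood at 488 ± 42.4 TPM in the second quantification, where it was the highest subunit, against 132 ± 15.2 in the main one. Without Cct6a, an omission chosen after values had been seen, the range was 1.26 ± 0.15 in the main, 1.197 ± 0.139 in the second and 1.31 ± 0.15 in the M4 quantification.

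**Figure D3:**
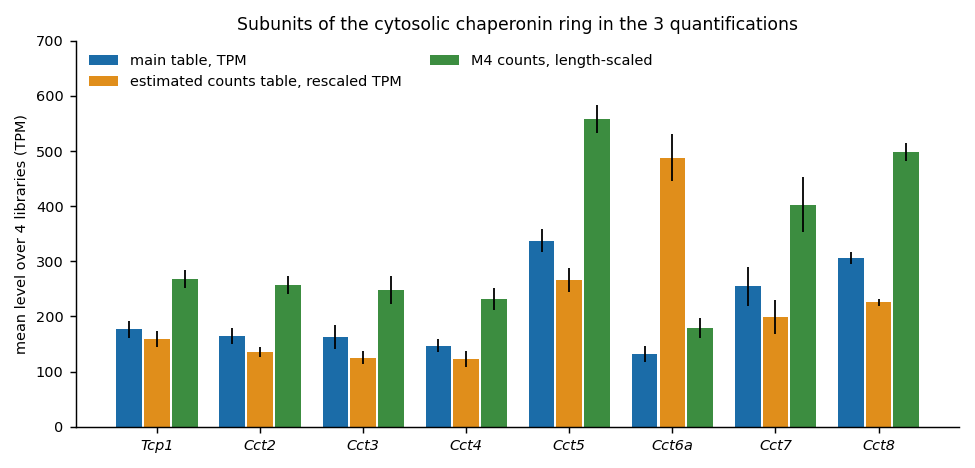
Mean level of the 8 subunits of the chaperonin ring in 3 quantifications, with bars for the SD over 4 libraries. Cct5, Cct8 and Cct7 lead in the main and M4 values, and Cct6a leads only in the second quantification.

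Cct5, Cct7 and Cct3 were lowest in library 4. Cct7 had 281, 283, 245 and 208 TPM and ranged 1.51-fold in CPM (likelihood ratio test, adjusted p = 6.5e-62), and Cct3 had 170, 183, 165 and 132 TPM. Cct4 ranged 1.08-fold and was not called (adjusted p = 0.14). Cct6b, a testis-enriched subunit, averaged 0.383 TPM, and Cct8l1 was at 0 counts.

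Hspd1 (HSP60) and Hspe1 (HSP10) form the mitochondrial chaperonin. Hspd1 had 146, 125, 116 and 134 TPM, and Hspe1 had 122, 132, 130 and 148 TPM. Their log2 ratio was 0.25, -0.08, -0.16 and -0.14, mean -0.03 ± 0.19 (SD, n = 4), so neither exceeded the other in all libraries of the main table, whereas Hspe1 was the higher in all 4 in the second quantification. Each shares 44.8% of its 50-base stretches with other genes. Hspa9 stood below Hspd1 in every library, by -0.82, -0.73, -0.70 and -1.03 on the log2 scale. A set of 8 mitochondrial genes, grouped after values had been seen, summed to 583, 561, 553 and 580 TPM.

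Small HSPs bind unfolding proteins without ATP and are abundant in muscle and lens. Hspb11, which is known as a subunit of intraflagellar transport, was the only one at 10 TPM or more, with 22.7, 24.4, 19.3 and 16.6 TPM. Hspb6 averaged 2.56 ± 0.513 TPM and Hspb9 0.665 ± 0.464. Hspb1, the stress-inducible HSP27 whose promoter is shown above, had 1 count in all, in library 4. Hspb2 had 2 counts in library 1, Hspb7 1 count in library 2, and Hspb8 and Hspb3 none. A count of 0 allows up to 0.323, 0.321, 0.322 and 0.451 CPM in libraries 1 to 4, taken as 3 counts and for counting error only.

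Among the partners of these genes, listed by function but with earlier results of these data known, expression was general. Of the 16 HSP90 co-chaperones all reached 10 TPM in every library, and 14 of 16 were called, among them Fkbp4 at 73.1, 31.8, 40.03 and 44.5 TPM and Ptges3, which encodes p23, at 230, 161, 141 and 166 TPM. Both were highest in library 1. Of the 14 HSP70 exchange factors and partners 13 reached 1 TPM and 11 were called, led in level by St13 at 131 ± 9.43 TPM. Of the 11 prefoldin and chaperonin partners all reached 10 TPM and 8 were called, led by Pfdn5 at 1316 ± 99.2 TPM. Of the 16 genes of the unfolded protein response 15 reached 1 TPM and 15 were called. Its transcription factor Xbp1, also a plasma cell marker, had 38.5, 5.49, 31.7 and 25.5 TPM. Of 5 HSF genes and regulators 3 reached 1 TPM and all 3 tested were called: Hsf1, the main heat shock factor, had 57.5, 58.5, 56.7 and 42.1 TPM, Hsf2 8.83 ± 3.00 and Hsbp1, a negative regulator of HSF1, 151 ± 10.1. Of 4 further J-domain genes all reached 1 TPM and 2 were called, among them Gak, which uncoats clathrin vesicles. These shares lie beside 68.4% over all tested genes.

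The main transcript table gives the percent of each gene's TPM held by each transcript. Over the 47 genes with a mean of at least 10 TPM, the leading transcript held a median of 67.8%, with an SD of 1.89 over library medians. It held over 90% in 13 genes and under 50% in 13 others. In 44 of the 47 the second quantification had the same leading transcript, the exceptions being Dnajc14, Dnajc5 and Hspa4. The leading transcript was annotated as subject to nonsense-mediated decay in Cct8, Dnajb13 and Dnajc15. By share of expected counts, a protein-coding transcript held more than it in Cct8 (44.9 against 39.8%) and Dnajb13 (55.0 against 36.3%). Of the TPM of all 82 genes, 78.2% lay in protein-coding transcripts, 11.3% in processed transcripts, 5.57% in nonsense-mediated decay transcripts and 4.90% in retained introns.

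The leading transcript of Hspa8 on average, Hspa8-202, held 35.5, 38.6, 39.5 and 39.6% of its TPM, a narrow range. In library 1 Hspa8-201 held more, at 37.4%. That of Hsp90b1 held 95.3 ± 2.55% and that of Hsp90ab1 81.5 ± 7.78%. In some genes the share moved widely between libraries: Hspb11-201 held 60.1, 50.3, 0 and 99.2% and Dnajb12-204 held 41.4, 72.9, 63.2 and 16.3%. In others of like level it did not, such as Dnajc17 at 91.9 ± 4.35%. The remaining genes led by a transcript under 50% were Cct7, Cct8, Dnajc1, Dnajc11, Dnajc13, Dnajc14, Dnajc4, Dnajc5, Dnajc7, Hspa4 and Hspa4l, at 32.2 to 48.4%. Shares of expected counts could differ widely from shares of TPM: the leading transcript held 89.4% of the counts in Dnajc13 and 19.2% in Hspa4l.

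**Figure D4:**
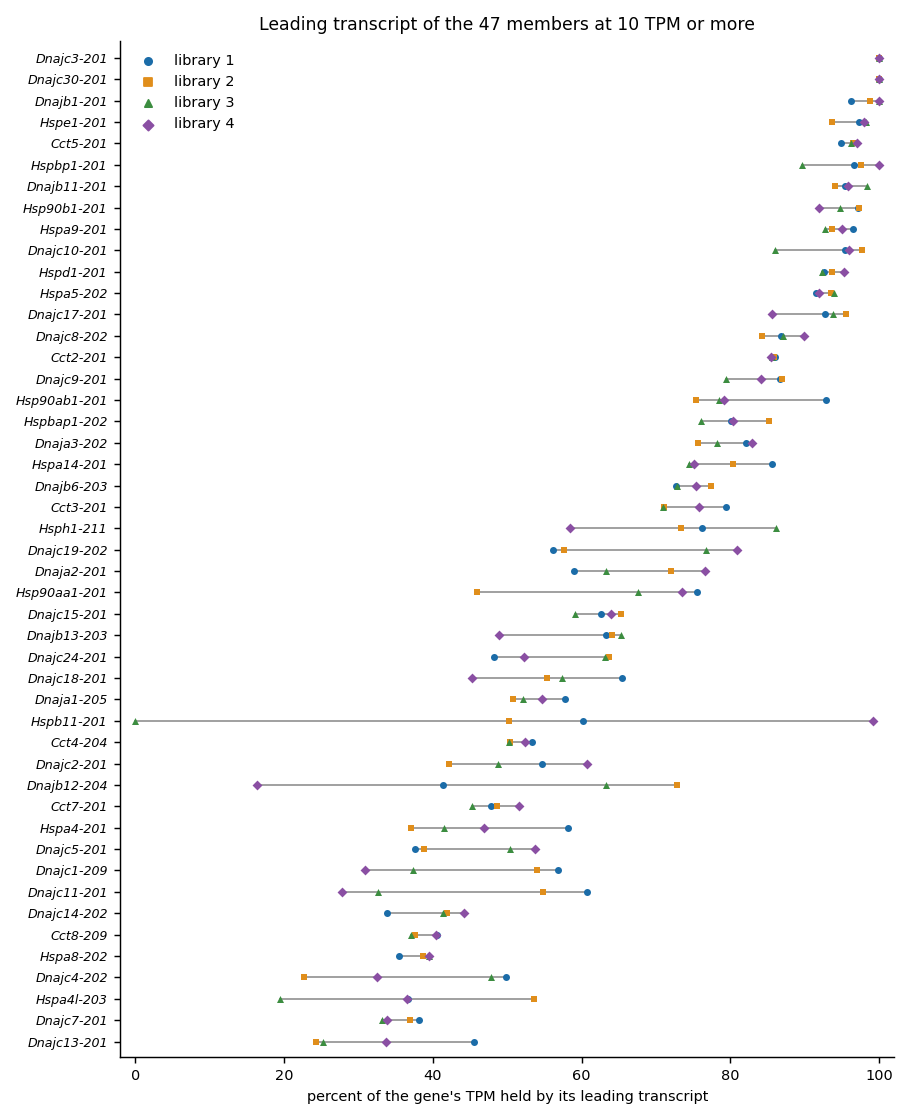
Percent of gene TPM held by the leading transcript in each library, for the 47 genes with a mean of at least 10 TPM. Hsp90b1 lies near 95% in all libraries, whereas Hspb11 spans 0 to 99.2%.

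The 3 quantifications gave similar but not equal levels. Of the 53 genes at 5 TPM or more, all 53 lay within 1.5-fold of the main level in the second quantification, as did 96.1% of 8351 nuclear protein-coding genes at that level. In the M4 counts 31 of 52 did (59.6%), against 58.8% of 8270, while 14 were higher and 7 lower by more than 1.5-fold. The 6 CCT genes at that level were higher by 0.62 to 0.73 on the log2 scale, and Hsp90ab1 by 0.66. Among genes at 5 TPM or more, the second quantification was highest relative to the main one for Hspa4 (log2 ratio 0.55), Dnajc1 (0.39), Dnajb6 (0.38), Dnajc24 (0.37) and Hspb11 (0.33). It was lowest for Dnaja2 (-0.54), Cct8 (-0.44), Hsp90ab1 (-0.40), Dnajb5 (-0.40) and Cct3 (-0.37). Genes below that level reached further, such as Hspa12b (4.01, from 3.58 TPM against 0.0975 in the main table) and Dnajc28 (-0.57). The M4 level of Dnajc19 was lower by -4.66 on the log2 scale, that of Dnajc5 by -2.66, that of Dnajb6 by -1.42 and that of Dnaja1 by -0.97. These genes were chosen after their values were seen. The cause of these differences was not tested. Of the 50-base stretches of the leading transcript, 32.0% in Dnajc19, 41.9% in Dnajb6, 83.2% in Dnaja1 and 0% in Dnajc5 occur in other genes.

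**Figure D5:**
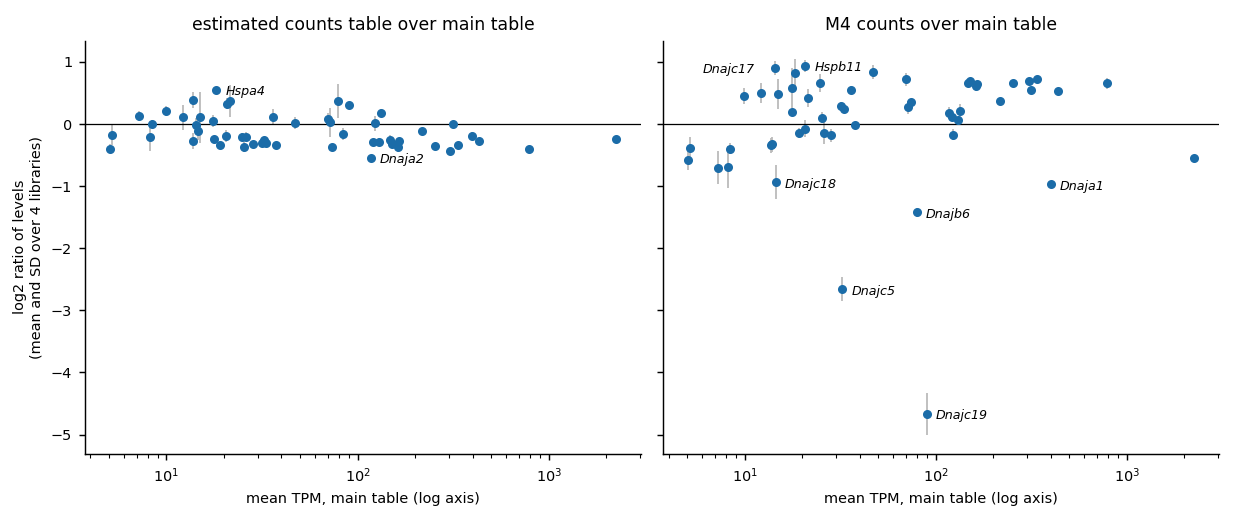
Log2 ratio of the second quantification and of the M4 counts over the main level, against mean TPM on a log axis, for the genes at 5 TPM or more. The second quantification lies within 1.5-fold throughout, and Dnajc19 at -4.66 is the lowest point of the M4 counts.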

How the data were processed

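Per the labels and the submitters' notes beside the files, polyA RNA of 1 biosample was sequenced in 4 technical libraries and quantified by the authors in 3 ways on mm10. The main deposited tables hold expected counts and TPM per gene and transcript on GENCODE M21, and, per the file headers, each transcript's percent of its gene's TPM. The second deposited table holds estimated counts and TPM per transcript, here summed per gene and rescaled to the main table's total over nuclear coding genes. The last deposited table holds gene counts, all whole numbers, on GENCODE M4, here divided by the main table's mean effective length (at least 50 bp) and scaled over matched genes to compare levels. Programs, aligners and strand settings were not given in the sources used, so reads of overlapping or antisense genes may be shared.

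Expected counts were rounded, and control sequences outside genes, 0.133 to 0.504% of counts, were left out. The test between libraries used TMM sizes from edgeR 4.0.16 in R 4.3.3 and genes whose counts averaged 10 or more. edgeR's quasi-likelihood test was not used, since 1 group gives no contrast. DESeq2 1.42.0 gave alternative size factors. Pairs of genes were compared without a test, as 4 libraries allow no sign-flip p below 0.125. The test was first checked on simulated data. Python 3.11.15, numpy 2.4.6, pandas 2.3.3 and matplotlib 3.10.9 were used for the rest.

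Named genes were the 3 highest of each family and all of small families. To these were added the 10 called genes with the widest range at a mean count of at least 50. Among genes at 5 TPM or more in either quantification, the 5 highest and 5 lowest in second over main level were named. The classical stress genes, those whose leading transcript held under 50%, and those at 0 counts were also named. Members and lists were chosen with earlier results of these data known. The leave-one-out, quantification and highest-library counts of members, the sequence sharing over 50-base stretches and the genes screened for outlying libraries were added after values had been seen.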

Additional observations from a re-analysis of the deposited data

Results flagged for a closer look

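In each group of 4 libraries, the highest or lowest library was compared with the spread of the others by Dixon's ratio, over 124 values, of which 3 stood out, each in library 1. By chance about 1 in 20 groups is picked out in this way. Dnajb12 had 20.15 TPM in library 1, against 12.23, 11.87 and 11.16 TPM in libraries 2 to 4. Dnajc12, a co-chaperone of aromatic amino acid hydroxylases, had 7.21 TPM in library 1, against 3.81, 3.21 and 3.36 TPM, but its counts of 45, 41, 48 and 27 in libraries 1 to 4 did not differ between libraries (likelihood ratio test, adjusted p = 0.78). The 13 DNAJB genes summed to 254.29 TPM in library 1, against 188.06, 194.73 and 197.58 TPM. Library 1 also held 1065 TPM of erythroid genes, and the part of that RNA in these values was not tested.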

How the results depend on the processing

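No paired analysis was possible because the libraries form 1 group. The number of genes that differed between libraries, 52, was 51 with DESeq2 size factors, 49 with total counts, 53 of 72 where counts averaged 1 or more (52.4% of all tested genes), 57 with estimated counts, 53 with M4 counts and 41 to 48 with one library left out (54.4 to 61.8% of all tested genes). The summed level was 6589 TPM in the second quantification and 8507 in the M4 counts. The median SD between libraries was 0.217 with estimated counts and 0.183 to 0.209 with one library left out. Hsp90ab1 over Hsp90aa1 was 2.24 (second) and 3.48 (M4) on the log2 scale, Hspa8 over Hspa1a plus Hspa1b 10.98 (M4), Hspd1 over Hspe1 -0.50 (second), Hspa9 over Hspd1 -0.52 (M4) and Dnaja1 over Dnajb1 2.50 (M4). The range of the chaperonin subunits was 2.07 (second) and 1.65 (M4), and the median leading transcript share was 65.8% (second). With one library left out, Hspd1 over Hspe1 was -0.13 to 0.01, and no other pair changed sign in the alternatives run. Among named genes, the calls of Dnajb5 and Dnajb6 were lost in the M4 counts and that of Dnajc24 in the second quantification, while Dnajc8 gained one in both, and Dnaja4 and Hspb6 in the second quantification. With DESeq2 size factors no call of the 43 named genes tested changed. The cause of these shifts was not tested. Depth limits genes of few counts, such as Dnajc28 and the small HSPs, and 1 biosample leaves the variation between animals unmeasured.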
